A study of Homo sapiens with 4 samples.

Results

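The genes described here are 34 members of the p53 pathway, nearly all of them direct targets of the transcription factor p53. They were taken by name from a list of targets that act in cell cycle arrest and feedback, apoptosis, DNA repair, metabolism, and secretion or mitochondrial upkeep. On the arrays 31 of the 34 were measured, through 78 probe sets that the annotation gives to 1 gene each, among 19775 genes in all. BTG2 and FDXR are not analysed here, and the 1 probe set of BBC3 is shared with other genes and was not used. No result was used to choose among the 34, but the list was drawn up with earlier results of these data known.

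Messenger RNA was measured on 4 Affymetrix HG-U133 Plus 2.0 arrays, 1 per sample, in HepG2, a human hepatoma line known to keep wild-type p53. The LSD1-KD group has 2 arrays, 1 from cells given siRNA-1 against LSD1 and 1 from cells given siRNA-2 against LSD1. The control group has 2 arrays from cells given siRNA against GL3, a firefly luciferase sequence that human cells do not carry. In all 4 samples the medium held 25 mM glucose and 10% serum, transfection with RNAiMAX took place near 50% confluence, and RNA was taken after 4 days. Each siRNA against LSD1 was therefore read once, on 1 array of bulk RNA, where fewer cells that express a gene and less RNA per cell cannot be told apart. The labels do not say that the arrays of a group come from separate cultures, so p-values cover no more than the variation among these 4 arrays, and that variation may be technical.

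p53 is a tetrameric transcription factor that cells keep at a low level through MDM2, a ubiquitin ligase that marks p53 for degradation and is itself a p53 target. DNA damage and other stresses free p53 from MDM2, and p53 then raises genes that stop the cell cycle, repair DNA, adjust metabolism or start apoptosis, together with MDM2 and the phosphatase PPM1D, which shut the response down. LSD1, encoded by KDM1A, is a flavin-dependent demethylase that acts on histone H3 and is also known to remove methyl groups from p53 itself. In HepG2 and other hepatoma lines with wild-type p53, stabilised p53 is known to raise CDKN1A and MDM2.

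p53 binds pairs of a 10-base motif, the p53 half-site. RefSeq promoter windows on GRCh38.p14, from 250 bases before to 50 bases after an annotated start, were searched for 2 half-sites side by side. Up to 3 mismatches over the 20 bases were allowed, but the central C and G of each half-site had to be present. The motif reads alike on both strands, so 1 search covers both, and half-sites set apart by a spacer were not searched. Of 35116 windows over all genes, 1.12% held such a match. Counted by gene, 1.37% of the 27305 genes with a window had a match. Of the 31 measured members, 25 had a window and 7 of these held a match: SESN1, FAS, DDB2, MDM2, AEN, PMAIP1 and GDF15. A match is a description of the letters, not a bound site, and binding was not measured. The windows of 3 members on which the results below turn are shown from 130 bases before to 20 bases after the start. They are DDB2 on the plus strand of chr11:47214844-47214993, SESN1 on the minus strand of chr6:109008969-109009118, and MDM2 on the plus strand of chr12:68808887-68809036. Capitals mark the match.
DDB2 promoter: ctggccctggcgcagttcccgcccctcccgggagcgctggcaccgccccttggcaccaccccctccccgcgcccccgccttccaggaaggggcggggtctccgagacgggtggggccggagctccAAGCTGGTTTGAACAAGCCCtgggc
SESN1 promoter: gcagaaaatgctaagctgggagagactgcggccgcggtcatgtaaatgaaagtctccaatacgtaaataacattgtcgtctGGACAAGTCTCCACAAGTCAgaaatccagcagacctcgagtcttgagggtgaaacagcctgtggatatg
MDM2 promoter: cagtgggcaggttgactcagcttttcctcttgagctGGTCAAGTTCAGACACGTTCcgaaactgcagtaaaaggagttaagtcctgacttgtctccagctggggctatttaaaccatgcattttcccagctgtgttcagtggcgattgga
The DDB2 match has 1 mismatch, the MDM2 match has 2 and the SESN1 match has 3. For the other 4 genes only the 20 matched bases are shown, for comparison with those above. They lie at chr10:88991309-88991328 (FAS), chr15:88621306-88621325 (AEN), chr18:59899811-59899830 (PMAIP1) and chr19:18386186-18386205 (GDF15), all on the plus strand.
FAS match: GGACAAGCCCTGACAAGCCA
AEN match: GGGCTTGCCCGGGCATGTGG
PMAIP1 match: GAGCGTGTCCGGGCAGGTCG
GDF15 match: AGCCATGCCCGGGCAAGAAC
The matches of FAS and AEN have 2 mismatches each, and those of PMAIP1 and GDF15 have 3 each. In the data that follow, DDB2 and SESN1 stood higher with siRNA-2 and MDM2 and GDF15 stood lower, so the genes with a match did not move in 1 direction.

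The deposited values are RMA values, taken to be on the log2 scale, and each probe set is centred so that its median over the 4 arrays is 0. A value therefore says how far an array lies from the middle of that probe set, and differences between arrays remain while levels are gone. The number of arrays limits the precision. The step size of the stored numbers still gave a coarse brightness class, with edges at 8 and 4 on the RMA scale. Such a class can come out too high by coincidence. A probe set that crosses an edge tends to take the class of its lowest array. By this class 20 members lay at 8 or above, 10 between 4 and 8 and 1, PMAIP1, below 4. The 7 measured hepatocyte markers (ALB, AFP, APOA1, APOB, TTR, SERPINA1 and FGB) all lay at 8 or above, while 4 of 8 markers of other cells lay below 4 (PTPRC and CD3E of blood, VWF of endothelium and the stromal COL1A2). PECAM1, COL1A1 and COL3A1 lay between 4 and 8 and DCN at 8 or above. Of these 8, COL1A1 stood above both controls on both LSD1-KD arrays, by 1.10 for siRNA-1 and 2.65 for siRNA-2, PECAM1 and DCN stood below, and the part of such cells in the results was not tested. All 7 hepatocyte markers were higher on both LSD1-KD arrays than on both control arrays, against 23.7% of all genes. Their median difference was 0.31 for siRNA-1 and 0.46 for siRNA-2. Over both LSD1-KD arrays AFP and APOB differed by only 0.14 and 0.11, and ALB by 0.94 with its controls 0.50 apart.

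The targeted gene was read first. KDM1A stood at -1.55 with siRNA-1 and -1.17 with siRNA-2, against 1.23 and 1.17 in the controls. Its difference was -2.56 ± 0.16 on the log2 scale (standard error, 2 arrays against 2), or 5.91-fold lower, and it missed the threshold of 0.05 after Benjamini-Hochberg adjustment in limma (adjusted p = 0.0854). Set apart against the controls in limma, siRNA-2 gave a difference of -2.37, which passed. The siRNA-1 difference of KDM1A was larger in size, at -2.75, with the same standard error of 0.07 as for siRNA-2, and did not pass.

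Among the p53 targets, the DNA repair gene DDB2, the apoptosis genes TP53INP1, CYFIP2 and BAX, the metabolic gene SESN1 and the mitochondrial gene SPATA18 were higher on both LSD1-KD arrays, and much more so with siRNA-2. The death receptor gene TNFRSF10B, the p53 ligase gene MDM2 and the cytokine gene GDF15 were lower on both. CDKN1A, the cell cycle inhibitor p21 and the best-known p53 target, differed little with either siRNA. With both LSD1-KD arrays taken as 1 group, 0 of 31 members passed the threshold in limma, where 0.00506% of all genes did, and the smallest adjusted p of a member was 0.217 (GDF15). At an unadjusted p under 0.05, 6 members passed, against 14.6% of all genes. An exact permutation test of 2 arrays against 2 cannot give a p below 0.33.

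Both LSD1-KD arrays lay above both controls for 14 of 31 members (45.2%), against 23.7% of all genes. Both lay below both controls for 8 members (25.8%), against 25.4% of all genes, so that share was near the background. This balance turned without _x_at and _s_at probe sets, which the maker marks as able to bind several transcripts: 7 of 21 members (33.3%) then lay above and 9 (42.9%) below, against 22.8% and 24.3% of all genes. With the probe sets used for all 31 members, the remaining 9 overlapped the controls. The median difference of the members was 0.12, against 0.00 over all genes, and it was 0.10 for siRNA-1 and 0.19 for siRNA-2. The controls lay close together for the members, with a median gap of 0.06 and a largest gap of 0.16, and the median gap over all genes was 0.08. Nearly all members are among the brighter genes. Of the 30 members at 4 or above, 43.3% were higher and 26.7% lower on both LSD1-KD arrays, against 26.0% and 27.4% of all 14511 genes in these classes.

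Each siRNA was also set against the 2 controls in a limma model with 3 groups, in which the spread comes from the controls alone and a lone LSD1-KD array is assumed to vary like them. The comparisons of both siRNAs share the same control arrays and, for each gene, the same standard error. Whether a difference passes also depends on the adjustment over all genes of that comparison. A larger siRNA-1 difference can thus miss the threshold where a smaller siRNA-2 difference passes, as for KDM1A and GDF15. Passing with siRNA-2 alone therefore does not show that siRNA-2 moved a gene more. With siRNA-1, 0 of 31 members passed the threshold, as did 0.0% of all genes, and the smallest adjusted p of any gene was 0.0875. At an unadjusted p under 0.05 in that fit, 17 members passed, against 27.0% of all genes. With siRNA-2, 11 of 31 members (35.5%) rose, against 13.5% of all genes, and 5 members (16.1%) fell, against 10.3% of all genes. Of the members at 4 or above, 36.7% rose and 16.7% fell, against 17.2% and 13.0% of all genes at 4 or above. Without _x_at and _s_at probe sets, 6 of 21 members rose (28.6%) and 3 fell (14.3%), against 10.7% and 7.71% of all genes. Among the members that passed with siRNA-2, the probe sets used for MDM2, BAX, CYFIP2, SESN1, TP53I3 and GDF15 carry these suffixes. Among the others, so do those used for CDKN1A, CCNG1, FAS, AEN, APAF1, PERP, PMAIP1 and SESN2.

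**Figure D1:**
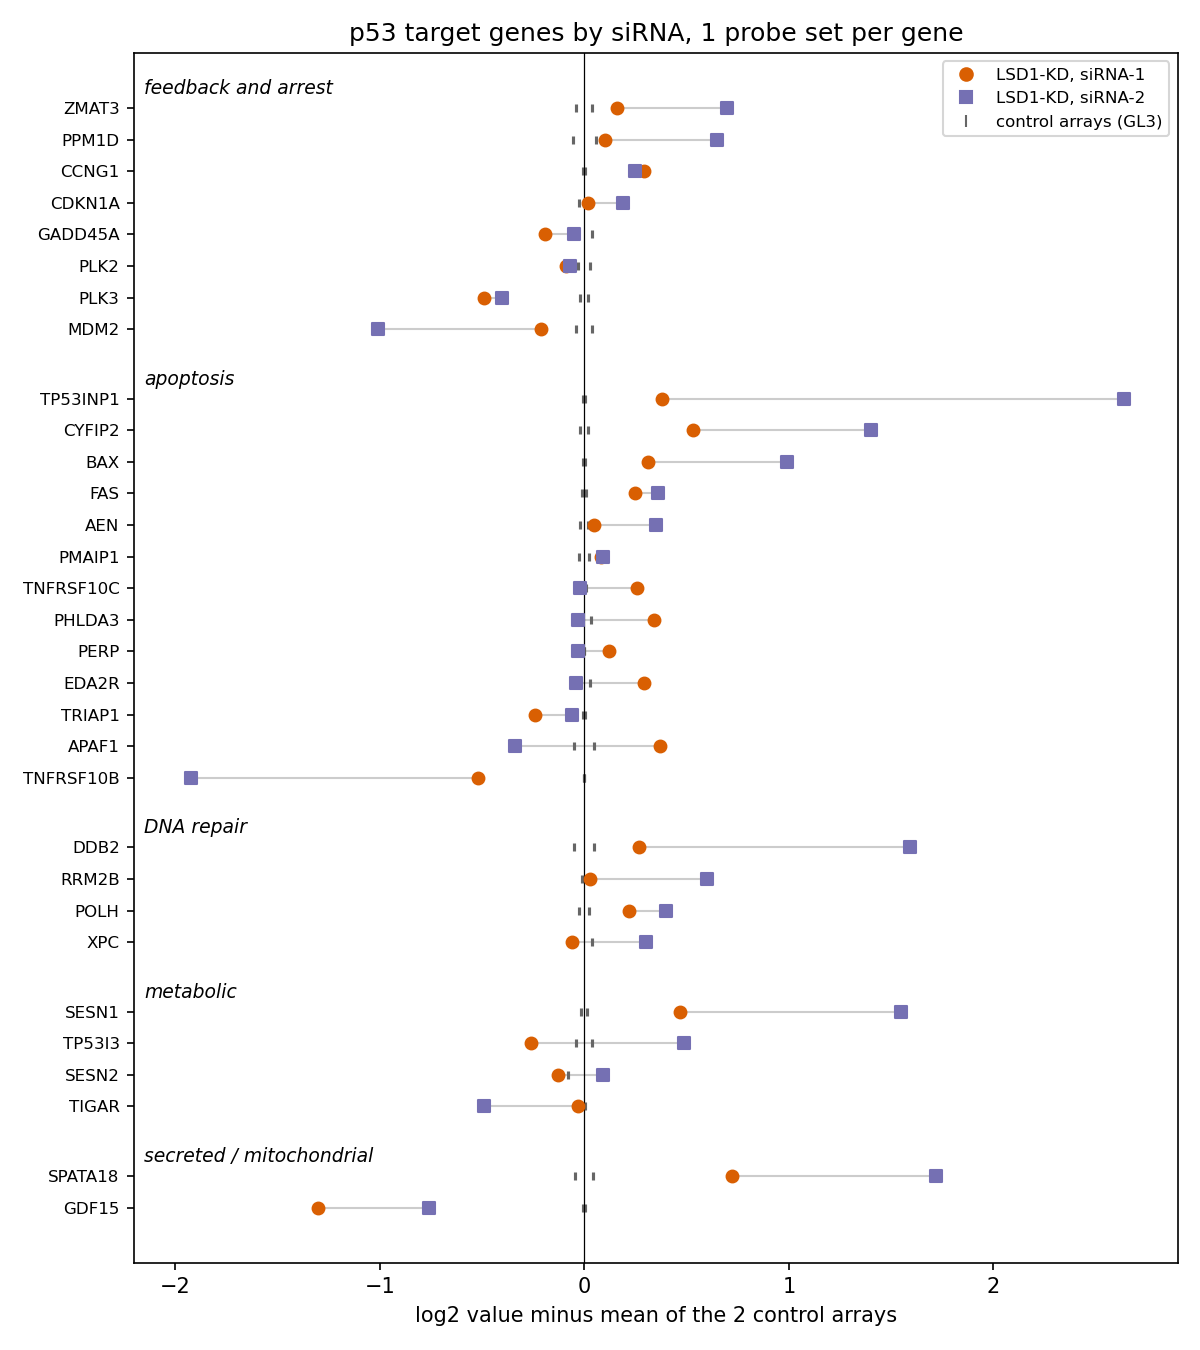
Difference from the mean of the 2 control arrays, on the log2 scale, for the 31 measured p53 targets, grouped by role. Circles are the siRNA-1 array, squares the siRNA-2 array and vertical ticks the 2 control arrays, so each point is 1 array and there are no error bars. TP53INP1 reaches 2.64 and TNFRSF10B reaches -1.92 with siRNA-2, while the control ticks stay within 0.16 of each other.

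Of the arrest and feedback genes, 8 of 9 listed were measured. With siRNA-2, 2 rose (ZMAT3 and PPM1D; 25.0%) and 2 fell (MDM2 and PLK3; 25.0%), against the 13.5% and 10.3% of all genes given above. The median difference was -0.04 for siRNA-1 and 0.07 for siRNA-2. MDM2 stood at -0.09 with siRNA-1 and -0.88 with siRNA-2, against 0.17 and 0.09 in the controls. Both LSD1-KD arrays were low, the siRNA-2 array by far the lower, and the groups did not overlap. The difference was -0.21 for siRNA-1 and -1.01 for siRNA-2, which is 2.01-fold lower and passed the test (adjusted p = 0.0191 in limma). MDM2 has 10 probe sets, of which all 10 were lower with siRNA-2, by between -1.94 and -0.15, and 7 of 10 were lower with siRNA-1.

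PPM1D, the phosphatase that switches p53 and its kinases off, moved the other way from MDM2 by the brighter of its 2 probe sets. The dimmer one gave -0.34 for siRNA-1 and 0.02 for siRNA-2 and overlapped the controls. By the brighter one, used here, PPM1D stood at 0.02 with siRNA-1 and 0.57 with siRNA-2, against -0.13 and -0.02 in the controls. The siRNA-2 array stood apart while the siRNA-1 array lay just above the controls. It was 1.56-fold higher with siRNA-2 (adjusted p = 0.0317 in limma). ZMAT3, an RNA-binding zinc finger protein, stood at 0.06 with siRNA-1 and 0.60 with siRNA-2, against -0.06 and -0.14 in the controls. Both LSD1-KD arrays lay above both controls, and the gene was 1.62-fold higher with siRNA-2 (adjusted p = 0.0259 in limma). All 5 of its probe sets were higher with siRNA-2, and 4 of 5 with siRNA-1.

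PLK3, a stress-responsive polo-like kinase, was low to a like degree with both siRNAs by the probe set used. It stood at -0.28 with siRNA-1 and -0.19 with siRNA-2, against 0.19 and 0.23 in the controls. The difference was -0.49 for siRNA-1 and -0.40 for siRNA-2, and the second passed the test (adjusted p = 0.0456 in limma). The other probe sets of PLK3 gave -0.34 and 0.05 for siRNA-1 and -0.12 and -0.07 for siRNA-2, and overlapped the controls. The mean of its probe sets gave a difference of -0.23 over both LSD1-KD arrays, against -0.45 for the probe set used. CCNG1, the cyclin G gene, had near-equal values, at 0.17 with siRNA-1 and 0.12 with siRNA-2, against -0.12 and -0.13 in the controls. Its difference of 0.27 ± 0.10 did not pass the test (adjusted p = 0.339 in limma).

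CDKN1A stood at 0.00 with siRNA-1 and 0.17 with siRNA-2, against -0.05 and 0.00 in the controls. The siRNA-1 array overlapped the controls, and the lone probe set of CDKN1A is an _s_at probe set. The difference was 0.02 for siRNA-1 and 0.19 for siRNA-2 (adjusted p = 0.158 in limma), each with a standard error of 0.07. GADD45A, which acts in growth arrest after DNA damage, and PLK2, another polo-like kinase, differed by -0.19 to -0.05 and did not pass.

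Of the apoptosis genes, 13 of 14 listed were measured. With siRNA-2, 3 rose (TP53INP1, CYFIP2 and BAX; 23.1%) and 1 fell (TNFRSF10B; 7.69%), against 13.5% and 10.3% of all genes. The median difference was 0.26 for siRNA-1 and -0.02 for siRNA-2, and 11 of 13 lay above the control mean with siRNA-1 and 6 of 13 with siRNA-2. TP53INP1 encodes a stress-induced nuclear protein that promotes p53-driven cell death. It stood at 0.19 with siRNA-1 and 2.44 with siRNA-2, against -0.20 and -0.19 in the controls. Both LSD1-KD arrays were high, and the siRNA-2 array exceeded every other member's value. The gene was 1.30-fold higher with siRNA-1 and 6.22-fold higher with siRNA-2, and the second passed the test (adjusted p = 0.0163 in limma). Its other 2 probe sets are dimmer, and over all 3 the difference ran from 0.07 to 2.64 with siRNA-2 and from -0.30 to 0.38 with siRNA-1.

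CYFIP2, a subunit of the actin-regulating WAVE complex that p53 induces, stood at 0.26 with siRNA-1 and 1.12 with siRNA-2, against -0.26 and -0.30 in the controls. The groups did not overlap, and the gene was 1.45-fold higher with siRNA-1 and 2.63-fold higher with siRNA-2 (adjusted p = 0.0163 in limma for siRNA-2). BAX, which opens the outer mitochondrial membrane in apoptosis, stood at 0.15 with siRNA-1 and 0.83 with siRNA-2, against -0.15 and -0.16 in the controls. It was 1.98-fold higher with siRNA-2 (adjusted p = 0.0171 in limma), and both of its probe sets were higher with both siRNAs.

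TNFRSF10B, the death receptor for the ligand TRAIL also called DR5, ran against the other apoptosis genes that passed. It stood at -0.26 with siRNA-1 and -1.66 with siRNA-2, against 0.26 and 0.26 in the controls. Both LSD1-KD arrays were low, and the siRNA-2 array was the lowest value of any member. It was 1.43-fold lower with siRNA-1 and 3.79-fold lower with siRNA-2, and the second passed the test (adjusted p = 0.0163 in limma). All 4 of its probe sets were lower with both siRNAs, but 1 of them, the brightest and the one used, alone was clearly lower with siRNA-2 than with siRNA-1. The other 3 gave -0.90, -0.77 and -0.24 with siRNA-1 and -0.83, -0.74 and -0.24 with siRNA-2. The mean of probe sets gave a difference over both LSD1-KD arrays of -0.77, against -1.22 for the probe set used. TNFRSF10C, a decoy receptor for the same ligand, differed by 0.26 for siRNA-1 and -0.02 for siRNA-2 and overlapped the controls.

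FAS, the receptor for FAS ligand, stood at 0.12 with siRNA-1 and 0.23 with siRNA-2, against -0.12 and -0.14 in the controls, and narrowly missed the test with siRNA-2 (adjusted p = 0.0528 in limma). Its 5 probe sets were all higher with siRNA-2 but only 3 of 5 with siRNA-1, and without _x_at and _s_at probe sets its difference over both LSD1-KD arrays was -0.08. AEN, a nuclease of apoptotic cells, differed by 0.05 for siRNA-1 and 0.35 for siRNA-2 (adjusted p = 0.0558 in limma). APAF1, the scaffold of the apoptosome, went opposite ways, by 0.37 for siRNA-1 and -0.34 for siRNA-2, and passed in neither. The other 5 genes had differences between -0.24 and 0.34 and did not pass: PMAIP1 (a BH3-only protein also called NOXA), PHLDA3 (an inhibitor of AKT), PERP (a membrane protein of cell junctions), EDA2R (a receptor for ectodysplasin) and TRIAP1 (a lipid-transfer protein of mitochondria). The probe sets of PHLDA3 disagreed, since 1 gave -0.03 and the other, dimmer one gave 1.15 with siRNA-2. All 5 probe sets of PERP were lower with siRNA-2, by between -0.94 and -0.03.

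**Figure D2:**
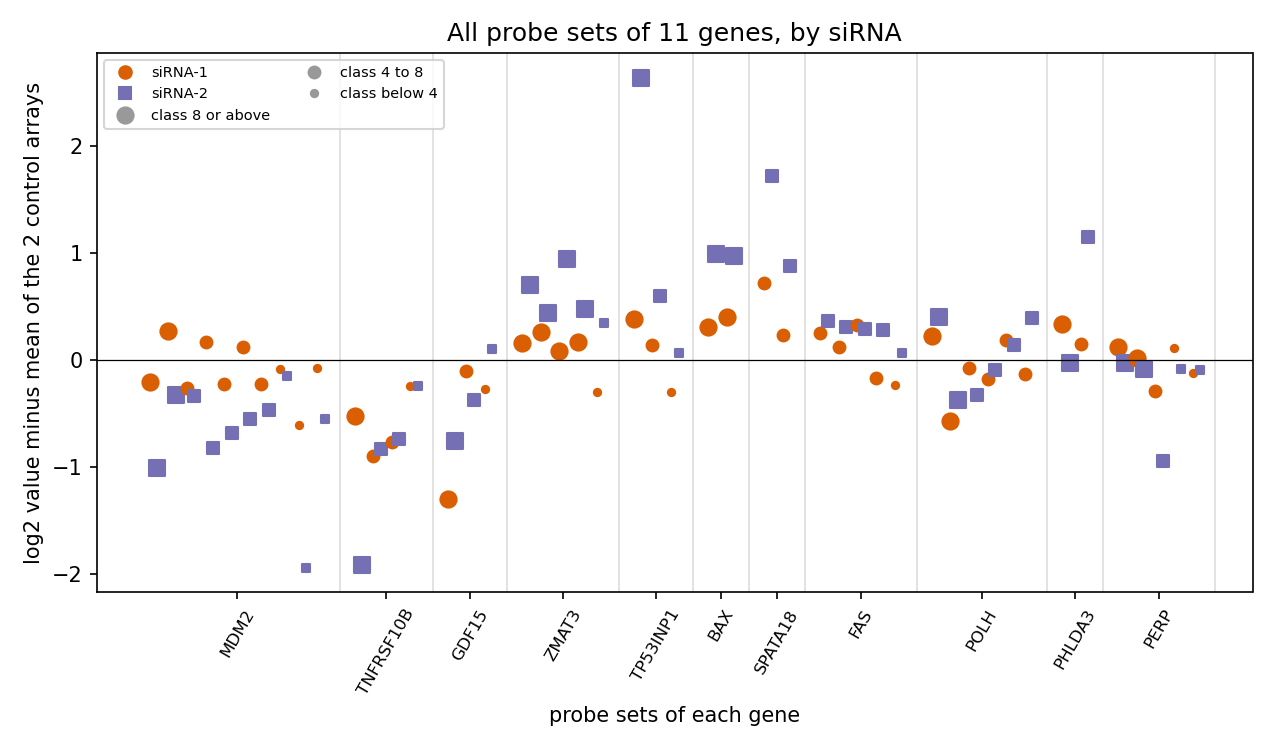
Difference from the mean of the 2 control arrays, on the log2 scale, for every probe set of 11 p53 targets, with circles for siRNA-1 and squares for siRNA-2 and larger symbols for brighter classes. Each symbol is 1 probe set on 1 array. All 10 squares of MDM2 and all 4 of TNFRSF10B lie below 0 and all 5 of ZMAT3 above it, whereas the 6 squares of POLH split evenly around 0.

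All 4 DNA repair genes were measured. With siRNA-2, 3 of 4 rose and 0 fell, against 13.5% and 10.3% of all genes, and their median difference was 0.13 for siRNA-1 and 0.50 for siRNA-2. DDB2, which recognises ultraviolet lesions in chromatin, stood at 0.11 with siRNA-1 and 1.44 with siRNA-2, against -0.21 and -0.11 in the controls. The siRNA-2 array stood far above the rest, and the gene was 1.21-fold higher with siRNA-1 and 3.02-fold higher with siRNA-2 (adjusted p = 0.0163 in limma for siRNA-2). DDB2 has 1 probe set, so no other reading of it is at hand. Its promoter holds the match with the fewest mismatches shown above.

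RRM2B, the p53-induced small subunit of ribonucleotide reductase, stood at 0.01 with siRNA-1 and 0.58 with siRNA-2, against -0.01 and -0.03 in the controls. The siRNA-1 array was next to the controls, and the gene was 1.51-fold higher with siRNA-2 (adjusted p = 0.0259 in limma). POLH, a polymerase that copies past ultraviolet lesions, was 1.32-fold higher with siRNA-2 (adjusted p = 0.0487 in limma), but 3 of its 6 probe sets were higher and 3 lower. The mean of its probe sets gave a difference of -0.03 over both LSD1-KD arrays, against 0.31 for the probe set used. XPC, the damage sensor of nucleotide excision repair, differed by -0.06 for siRNA-1 and 0.30 for siRNA-2 and did not pass.

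Of 5 metabolic genes, 4 were measured. With siRNA-2, SESN1 and TP53I3 rose and TIGAR fell, beside the 13.5% and 10.3% of all genes given above. The median difference was -0.08 for siRNA-1 and 0.29 for siRNA-2. SESN1, a sestrin that restrains the growth kinase mTORC1, stood at 0.23 with siRNA-1 and 1.31 with siRNA-2, against -0.26 and -0.23 in the controls. Both LSD1-KD arrays were above both controls, by 1.39-fold with siRNA-1 and 2.93-fold with siRNA-2 (adjusted p = 0.0163 in limma for siRNA-2). Its relative SESN2 overlapped the controls by the probe set used, with differences of -0.13 and 0.09. The dimmer probe set of SESN2 gave 0.15 for siRNA-1 and 0.54 for siRNA-2, with both LSD1-KD arrays above both controls.

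TP53I3, a quinone oxidoreductase, stood on opposite sides of the controls, at -0.26 with siRNA-1 and 0.49 with siRNA-2, against -0.04 and 0.04 in the controls. The siRNA-2 difference of 0.49 passed (adjusted p = 0.0415 in limma), and the siRNA-1 difference of -0.26 did not. TIGAR, a phosphatase that draws sugar away from glycolysis, stood at -0.01 with siRNA-1 and -0.48 with siRNA-2, against 0.01 and 0.02 in the controls. It was 1.41-fold lower with siRNA-2 (adjusted p = 0.0324 in limma), and with siRNA-1 it lay next to the controls.

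The other 2 members were the only ones that both siRNAs moved at least 1.5-fold away from the controls. SPATA18, also called Mieap and known for mitochondrial quality control, was the 1 such member above, against 2.13% of all genes. GDF15, a secreted stress cytokine that also acts on appetite, was the 1 such member below, against 1.11% of all genes, by 1 of its 3 probe sets. SPATA18 stood at 0.34 with siRNA-1 and 1.34 with siRNA-2, against -0.34 and -0.43 in the controls. It was 1.65-fold higher with siRNA-1 and 3.30-fold higher with siRNA-2 (adjusted p = 0.0163 in limma for siRNA-2), and both of its probe sets were higher with both siRNAs. The difference over both LSD1-KD arrays was 1.22 ± 0.35 (adjusted p = 0.286 in limma).

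GDF15 stood at -0.92 with siRNA-1 and -0.38 with siRNA-2, against 0.38 and 0.39 in the controls. Both LSD1-KD arrays were low, and here siRNA-1 gave the lower value. The gene was 2.46-fold lower with siRNA-1 (adjusted p = 0.0875 in limma) and 1.70-fold lower with siRNA-2 (adjusted p = 0.0212 in limma). The difference over both LSD1-KD arrays was -1.03 ± 0.21. Its 3 probe sets were all lower with siRNA-1, and 2 of 3 with siRNA-2, but the size rests on the brightest, an _x_at probe set. The next gave -0.10 for siRNA-1 and -0.37 for siRNA-2, and the dim one gave -0.27 and 0.10. The difference over both LSD1-KD arrays was -0.23 without _x_at and _s_at probe sets and -0.45 with the mean of probe sets.

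The difference between the siRNAs was tested in the same model. With siRNA-2 relative to siRNA-1, 6 of 31 members (19.4%) were higher, against 4.07% of all genes, and 2 members (6.45%) were lower, against 2.88% of all genes. The higher ones were TP53INP1 (2.25), DDB2 (1.32), SESN1 (1.08), SPATA18 (1.0), CYFIP2 (0.86) and BAX (0.68). The lower ones were TNFRSF10B (-1.40, in 1 of its 4 probe sets only) and MDM2 (-0.79). Each of these 8 also had the same sign with siRNA-1 as with siRNA-2. Both differences are taken from the same control mean, which by itself favours a shared sign. The siRNA-2 difference was the larger in size for 19 of 31 members, against 62.2% of all genes, so that share was near the background. The counts moved with the settings, as did those over all genes. Without _x_at and _s_at probe sets, 2 of 21 members (9.52%) were higher and 1 (4.76%) lower, against 2.01% and 1.48% of all genes. Without dim genes, 11 of 30 members (36.7%) were higher and 4 (13.3%) lower, against 13.2% and 9.27% of all genes. Under the mean of probe sets, 9 of 31 members (29.0%) were higher and 1 (3.23%) lower, against 6.23% and 4.43% of all genes. With robust moderation, 5 of 31 members (16.1%) were higher and 1 (3.23%) lower, against 2.48% and 1.87% of all genes.

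KDM1A itself was 6.73-fold lower with siRNA-1 and 5.19-fold lower with siRNA-2, and the difference between the siRNAs did not pass the test (0.38, adjusted p = 0.0903 in limma). The siRNA-2 array also spread more over all probe sets, with a standard deviation of 0.384, against 0.197 for siRNA-1 and 0.164 and 0.154 for the controls. The 18 probe sets for hybridization spike-ins averaged 0.61 with siRNA-1 and 0.65 with siRNA-2, against -0.69 and -0.61 in the controls. The difference between 5′ and 3′ probe sets of ACTB was -0.26 for siRNA-1 and -0.38 for siRNA-2, against 0.34 and 0.23 in the controls. These differ between the groups and their part in the results for the p53 targets was not tested.

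The rest of the pathway was read from 3 further lists. Of 43 further p53 targets, 41 were measured. Of these, 17 rose with siRNA-2 (41.5%) and 2 fell (4.88%), beside the 13.5% and 10.3% of all genes given above. Their median difference was 0.03 for siRNA-1 and 0.32 for siRNA-2. TRIM22, an interferon-inducible ubiquitin ligase, stood at 0.79 with siRNA-1 and 1.28 with siRNA-2, against -0.84 and -0.79 in the controls. It was high with both siRNAs, by 3.03-fold and 4.27-fold. ANKRA2, an ankyrin repeat protein, was 3.51-fold higher and SYTL1, a synaptotagmin-like protein of vesicle transport, 2.98-fold higher with siRNA-2 (adjusted p = 0.0163 in limma for all 3 genes).

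SCO2, which assembles cytochrome c oxidase, was the lowest of these targets over both arrays. It stood at -0.31 with siRNA-1 and -0.94 with siRNA-2, against 0.31 and 0.32 in the controls, and fell 2.39-fold with siRNA-2 (adjusted p = 0.0163 in limma). EPHA2, an ephrin receptor, and TNFRSF10D, another TRAIL decoy receptor, were low mainly with siRNA-1, by -1.04 and -0.83, against -0.20 and -0.31 with siRNA-2, and passed with neither.

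Of 26 regulators of p53, 23 were measured, and with siRNA-2 3 rose (13.0%) and 2 fell (8.7%), near the 13.5% and 10.3% of all genes. Their median difference over both arrays was 0.10. Those that fell included TP73, a relative of p53 (-0.52, adjusted p = 0.0325 in limma), and CDKN2A, whose ARF product holds MDM2 back (-0.51, adjusted p = 0.0366 in limma). HIPK2, a kinase that phosphorylates p53, rose with siRNA-2 (0.79, adjusted p = 0.0484 in limma). KMT5A and SMYD2, both of which methylate p53, had differences over both arrays of -0.43 and 0.45, and the p53 ubiquitin ligase gene RCHY1 had 0.25. None of these 3 passed with siRNA-2. Each regulator is given by 1 probe set, of 3 each for TP73 and CDKN2A and 10 for HIPK2. The CDKN2A value is read by gene, so ARF was not measured apart.

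Of 18 cell cycle genes that p53 is known to hold down through other factors, 17 were measured. The siRNA-2 array had 6 that rose (35.3%) and 2 that fell (11.8%), against 13.5% and 10.3% of all genes, so the share that rose was close to that of the p53 targets (35.5%). The median difference was -0.01 for siRNA-1 and 0.17 for siRNA-2. BIRC5, the apoptosis inhibitor survivin, stood at 0.01 with siRNA-1 and 1.09 with siRNA-2, against -0.01 and -0.13 in the controls, and was 2.23-fold higher with siRNA-2 (adjusted p = 0.019 in limma). The mitotic kinase gene CDK1 was higher by 0.42 and 0.43 and the topoisomerase gene TOP2A by 0.27 and 0.42. Both passed with siRNA-2 (adjusted p = 0.0388 and 0.0472 in limma). The mitotic kinase gene AURKA fell by 0.56 with siRNA-2 (adjusted p = 0.0288 in limma), while PLK1 and CDC20, which drive mitosis, differed by -0.26 and -0.03 with siRNA-2 and did not pass.

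**Figure D3:**
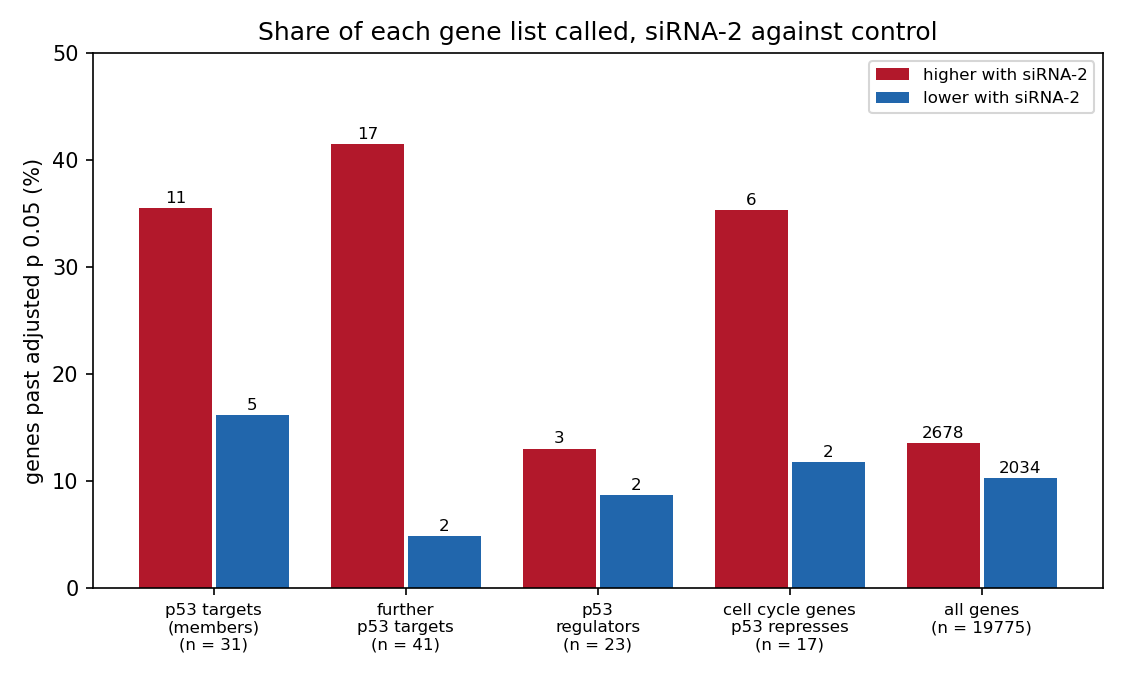
Share of the measured genes of each list past an adjusted p of 0.05 with siRNA-2 against the 2 control arrays, in percent, with the number of genes above each bar. The p53 targets (35.5% higher, 16.1% lower) and the further p53 targets (41.5% higher, 4.88% lower) stand beside all 19775 genes (13.5% higher, 10.3% lower).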

How the data were processed

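Per the submitters' processing notes, the authors made the deposited values with RMA. The deposited values are taken here to be log2, the base RMA gives. Not given in the sources used here: its version, the log base, and whether it was run on all 4 arrays at once. Each of 54675 probe sets had been centred to a median of 0 over the arrays (largest deviation 5e-07), so levels are gone. No further scaling was applied.

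Probe sets were named by the platform annotation with symbols updated through RefSeq: 41091 had 1 gene, 1801 had several and were not used, and 11777 had none here. No gene was taken from the 62 Affymetrix controls. A single probe set stood for each of 19775 genes (19734 matched to RefSeq): the brightest class, in place of the mean that centring removed, then no letter suffix, then identifier.

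Tests used limma 3.58.1 in R 4.3.3, two-sided, with Benjamini-Hochberg adjustment over all genes and a threshold of 0.05. Prior degrees of freedom were 2.33 for 2 groups and 1.96 for 3 groups, and the fit of 3 groups had 1 residual degree of freedom. The fits were tested on simulated data. The alternatives were the mean of probe sets, no _x_at or _s_at probe sets, every probe set, no dim genes (class below 4), array medians subtracted, robust moderation, each array left out, a replicate block and a 2-fold bound. All members were named; of other lists, up to 3 genes with the highest and 3 with the lowest differences among those whose groups did not overlap. Members and lists were chosen with earlier results of these data known.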

Additional observations from a re-analysis of the deposited data

Results flagged for a closer look

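For 8 p53 targets the siRNA-2 array differed from the siRNA-1 array past the threshold in the limma model with 3 groups, where the only replicate spread is that of the 2 controls. The difference, siRNA-2 minus siRNA-1 on the log2 scale, was 2.25 for TP53INP1, 1.32 for DDB2, 1.08 for SESN1, 1.0 for SPATA18, 0.86 for CYFIP2 and 0.68 for BAX. It was -1.40 for TNFRSF10B and -0.79 for MDM2. For TNFRSF10B it holds for 1 of 4 probe sets, since the other 3 gave -0.90, -0.77 and -0.24 with siRNA-1 and -0.83, -0.74 and -0.24 with siRNA-2. Adjusted p lay between 0.0434 (TP53INP1, DDB2, SESN1 and TNFRSF10B) and 0.0493 (MDM2), just within the threshold of 0.05, and each siRNA was read on 1 array. What sets the siRNAs apart was not tested.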

How the results depend on the processing

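Of 330 differences of members over both LSD1-KD arrays, taken under 11 alternatives, 314 kept their sign and 16 reversed, in 10 members. In the comparison of both LSD1-KD arrays with the controls, 1 gene passed; 0 passed with the mean of probe sets, with every probe set tested, without dim genes and with robust moderation. The numbers 1 and 2 are shared only as labels (the correlation of deviations over genes was 0.04), and with a replicate block 0 genes passed. Leaving out 1 array at a time gave 0 to 4712 genes, 0 to 16 members and a median difference of members of 0.10 to 0.19. The highest counts came without siRNA-1 (11 members higher and 5 lower, 23.8% of genes). With _x_at and _s_at probe sets left out, 7 of 21 members lay above and 9 below both controls on both LSD1-KD arrays, against 22.8% and 24.3% of genes, and 6 rose and 3 fell with siRNA-2, against 10.7% and 7.71% of genes. For siRNA-1, the mean of probe sets gave 112 genes and the filter on dim genes 174, among them 1 member, lower. For siRNA-2 minus siRNA-1, 1375 genes passed. This count was 2108 with the mean of probe sets, 596 with _x_at and _s_at probe sets left out, 3264 without dim genes and 860 with robust moderation. The members higher in that comparison were then 9, 2, 11 and 5, and the members lower were 1, 1, 4 and 1. The shares of all genes under each of these settings are given above. At 2-fold with each siRNA, 0 members were higher and 0 lower. The mean of probe sets reversed SESN2 (0.16), POLH (-0.03), APAF1 (-0.04) and PERP (-0.14), and leaving out _x_at and _s_at probe sets reversed FAS (-0.08) and PERP (-0.61). With 1 array left out, differences ran from -0.34 to 0.37 for APAF1, -0.13 to 0.09 for SESN2, -0.02 to 0.26 for TNFRSF10C, -0.03 to 0.34 for PHLDA3, -0.03 to 0.12 for PERP, -0.04 to 0.29 for EDA2R, -0.26 to 0.49 for TP53I3 and -0.06 to 0.30 for XPC. The cause of these changes was not tested. With 2 arrays a group, and calls for 1 siRNA resting on 2 controls, calls near the threshold depend on the prior. With levels removed, signal over background is unknown beyond the brightness class.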
